A study of Homo sapiens with 8 samples.

Results

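The baseline transcriptome of CCRF-CEM cells, a long-used human line of T-cell acute lymphoblastic leukaemia (T-ALL), was described from the 4 arrays of untreated cells among the 8 arrays of the series. These 4 arrays were taken by their titles, which mark untreated cells in 3D culture, and no measured value entered the choice. The untreated cells were mixed into bovine type I collagen at 1.7 mg/mL and kept in the polymerising gel for 1 h before RNA was extracted. The other 4 arrays came from cells given 1 µM OICR-9429, a compound that blocks the WDR5 pocket used by the methyltransferase MLL (KMT2A), for 1 h before the same collagen culture. They were used here only to see whether arrays of the same replicate number shared a pattern, and no effect of the compound is given. Both groups share the line, the collagen and the culture time. No cells outside collagen were analysed, so what the gel itself does cannot be told apart from the line's own state. The labels call the 4 samples biological replicates of 1 cell line and do not say whether they came from separate passages, so the spread reported may be in part technical.

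T-ALL arises from thymocytes stopped on their way to becoming T cells. In the thymus, progenitors lose stem-cell genes, switch on NOTCH1 targets and the T-lineage factors TCF7, GATA3 and BCL11B, rearrange the T-cell receptor genes with RAG1, RAG2 and DNTT, and pass through a cortical stage marked by CD1 molecules before the CD3 complex carries a mature receptor to the surface. NOTCH1 and its target MYC drive growth in much of the disease, while other cases hang on a single transcription factor, such as TAL1, TLX1, TLX3 or NKX2-5, that is switched on out of place.

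Each array gave a level on the log2 scale for 21448 probe sets, of which 17709 carried 1 gene symbol, none carried several and 3739 carried none. After genes whose level could show a person's sex were set aside, 17665 genes were described, each by its probe set with the highest mean. The array medians were 6.40, 6.46, 6.45 and 6.43 for replicates 1 to 4. Across all probe sets, replicates 1 to 3 correlated with each other at r between 0.983 and 0.989, and replicate 4 with them at r between 0.939 and 0.953. Replicate 4 stood apart: 715 probe sets were at least 2-fold above and 2425 at least 2-fold below the mean of the other 3 arrays there, against 102 to 425 above and 6 to 172 below for the others. Spread is therefore given with and without it.

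Because the scanner's own background values were not used, a limit for genes that are silent in blood cells was set from 348 probe sets of olfactory receptors, whose products detect odorants in the nose. Their means ran from 2.68 to 6.69 with a median of 3.39, and the 95th percentile, 4.79, is called the silent-gene limit below. It is a lax bar, passed by 73.1% of all probe sets. Of all 17665 genes, 74.5% lay above it, 52.5% lay above the median of all probe sets (6.46, by construction exceeded by 50% of probe sets), and 26.6% lay in the top 25% of probe sets (above 8.24). Probe sets differ in how strongly they respond to the same amount of RNA, so the ranks that follow are ranks of signal and not of transcript number.

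**Figure D1:**
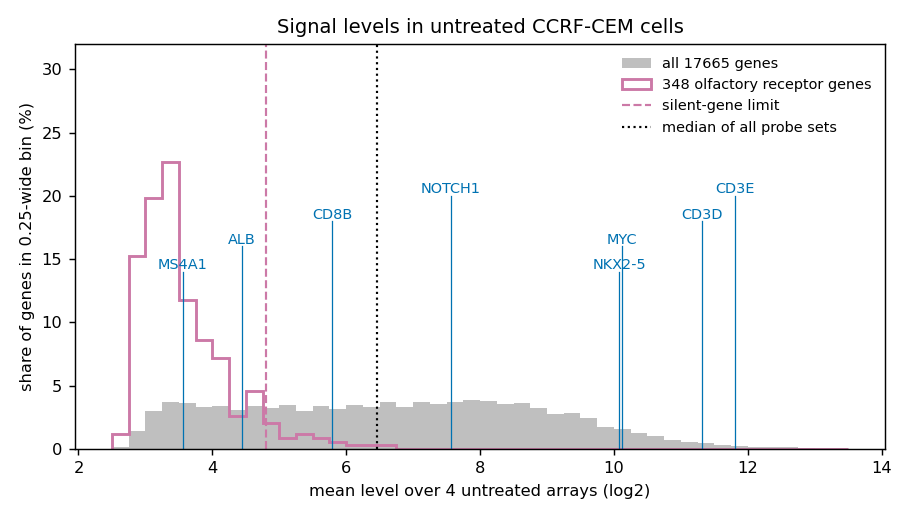
Share of genes (%) in bins of mean log2 level over the 4 untreated arrays, for all genes (grey) and for olfactory receptor genes (outline), with the silent-gene limit (4.79, dashed), the median of all probe sets (dotted) and 8 genes marked. CD3E at 11.81 and MYC at 10.12 lie in the upper tail, NOTCH1 at 7.56 lies nearer the middle, and the liver gene ALB at 4.44 and the B-cell gene MS4A1 at 3.56 lie among the olfactory receptors.

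The strongest signals came from the machinery of growth. Among the 30 named genes with the highest mean, 7 were replication-dependent histones, which package newly copied DNA, 6 were cytosolic ribosomal proteins, 4 were enzymes of glycolysis and 3 were cytoskeletal genes. TUBA1B, an alpha-tubulin of the microtubules, ranked 1st with 13.39, 13.04, 13.27 and 13.19 on replicates 1 to 4. GAPDH, the glycolytic enzyme, followed with a mean of 13.07 ± 0.13 (SD, n = 4) and EEF1A1, which brings aminoacyl-tRNA to the ribosome, with 13.07 ± 0.079 (SD, n = 4). ENO1, ALDOA and LDHA, which carry sugar on through glycolysis to lactate, had means of 12.83, 12.54 and 12.49. Histone, ribosomal protein and tubulin genes have near-identical copies, so signal may be shared among family members and the order within a family is uncertain. Probe sets without a gene name took 14 of the 30 highest places among all probe sets and 37 of the highest 100.

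Some of the 30 were not housekeeping genes. IL2RG, the gamma chain shared by the receptors of interleukin-2 and interleukin-7, read 12.46, 12.56, 12.56 and 12.87. ITM2A, a membrane protein known from thymocyte activation, read 12.62, 12.74, 12.70 and 12.60, and TSPAN7, a tetraspanin of the cell surface, read 12.81, 12.65, 12.81 and 12.64. The interferon-inducible membrane protein IFITM1 read 12.74, 12.70, 12.71 and 12.73. These 4 genes each spanned less than 2-fold over the arrays.

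MIR4485, a microRNA gene, was also among the 30, with 12.50, 12.71, 12.86 and 12.73. The sequence is shown because it is known to match the mitochondrial large ribosomal RNA, so the probe set may read that abundant RNA. The signal is not a measure of the mature microRNA. The mature strand in RefSeq, on GRCh38.p14 at chr11:10508277-10508296 on the minus strand, is given 5′ to 3′ with its seed (bases 2 to 8) in capitals.
hsa-miR-4485-3p: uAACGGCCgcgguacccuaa

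Genes of the T lineage gave strong signals. In all, 5 lists of T-lineage genes (receptor and CD3 complex, surface receptors, cortical thymocyte genes, transcription factors and signalling proteins) held 83 measured genes, of which 81 lay above the silent-gene limit (74.5% of all genes did), 73 above the median of all probe sets and 52 in the top 25%. Of all genes, 52.5% lay above that median and 26.6% in the top 25%. The median level of the 83 genes was 8.86, against 6.63 over all genes. By contrast, 13 lists of other lineages and states held 177 measured genes, of which 109 lay above the silent-gene limit, 44 above the median and 12 in the top 25%, with a median of 5.26.

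CD3E and CD3D, signalling chains of the T-cell receptor complex and the defining markers of the lineage, were among the strongest T-lineage signals. CD3E read 11.75, 11.91, 11.66 and 11.94 on replicates 1 to 4, and CD3D read 11.19, 11.25, 11.10 and 11.74. CD3G, the gamma chain, read 10.83, 10.76, 10.80 and 10.29, with replicate 4 lowest where CD3D had it highest. CD247, the zeta chain that carries most of the complex's signalling motifs, was lower and less even at 8.64, 9.06, 9.11 and 10.15. TRAT1, which stabilises the receptor complex, had a mean of 10.93. PTCRA, the surrogate alpha chain of the immature receptor, read 6.03, 6.11, 6.24 and 5.97, above the silent-gene limit and below the median of all probe sets. The constant-region genes of the receptor chains were not analysed here.

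Among surface receptors, 24 of 26 lay above the silent-gene limit and 15 lay in the top 25% (74.5% and 26.6% of all genes). IL2RG was highest, followed by the chemokine receptor CXCR4 at 11.73 ± 0.26 (SD, n = 4), CD99 at 11.70 ± 0.097 (SD, n = 4) and the phosphatase PTPRC (CD45), which marks all leukocytes, at 11.51 ± 0.34 (SD, n = 4). CD38, CCR4 and CCR7 had means of 10.81, 10.60 and 10.08. The pan-T markers differed among themselves: CD5 had a mean of 9.99 and CD7 of 9.10, while CD2 read 6.33, 5.96, 7.16 and 6.80, close to the median of all probe sets. CD4, the co-receptor for HLA class II, read 8.35, 8.57, 9.69 and 10.53, a span of over 4-fold. CD8A and CD8B, the chains of the class I co-receptor, had means of 5.99 and 5.79. They stood with ZBTB7B, which directs thymocytes to the CD4 fate, at 5.36, as the lowest T-lineage genes above the silent-gene limit. CTLA4 at 4.53 and IL2RA at 4.50, both raised on activated and regulatory T cells, were the 2 T-lineage genes not above it.

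The cortical thymocyte genes were all above the silent-gene limit, 11 of 11, and 3 were in the top 25%, near the 26.6% of all genes. ARPP21, a gene of cortical thymocytes, read 9.86, 10.46, 9.75 and 9.16, and DNTT, which adds untemplated bases at receptor gene joins, read 8.41, 9.34, 8.92 and 8.66. RAG1 and RAG2, the recombinase that cuts the receptor genes, had means of 7.61 and 6.43. CD1E, a lipid antigen-presenting protein of the cortical stage, read 9.40, 9.53, 11.10 and 7.54. CD1A read 6.91, 6.17, 8.19 and 5.57, CD1B read 6.28, 6.65, 7.91 and 5.84, and CD1C read 7.63, 7.52, 8.35 and 6.71. All of CD1A, CD1B, CD1C and CD1E were highest on replicate 3 and lowest on replicate 4. CD1A, CD1B and CD1E spanned more than 2-fold among replicates 1 to 3 as well, and CD1C did not.

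T-lineage transcription factors were strongly represented, with 21 of 21 above the silent-gene limit and 14 in the top 25%. Of all genes, 74.5% and 26.6% were. MYB, a progenitor and leukaemia factor, was the highest at 12.15 ± 0.21 (SD, n = 4). LEF1, which acts with TCF7 in early thymocytes, RUNX1 and TOX, a factor of thymic selection, had means of 11.44, 11.26 and 11.00. GATA3 stood at 8.48 ± 0.30 (SD, n = 4) and BCL11B, the factor that fixes T-lineage commitment, read 8.19, 7.47, 7.98 and 7.49. In the signalling list 20 of 20 were above the median of all probe sets (52.5% of all genes were). SH2D1A, the adaptor SAP, had a mean of 11.48 and NFATC3 of 11.20. The kinase LCK had a mean of 10.95 and ZAP70, the kinase that docks on the CD3 complex, of 8.98.

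Of the transcription factors known to be switched on out of place in T-ALL, NKX2-5 stood out. This heart homeobox gene is known to be activated in this line by a translocation that brings it near BCL11B. It read 10.17, 9.50, 10.04 and 10.62, and was the single member of its list of 14 in the top 25%. LMO2, TAL1, MEF2C and LYL1 followed with means of 8.17, 8.15, 8.10 and 7.93. TLX1 at 5.50 and TLX3 at 5.34 were low, and TAL2 at 3.34 lay near the olfactory receptor median. SPI1, a myeloid factor that is also fused in some T-ALL, had a mean of 5.12.

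NOTCH1 itself gave a middling signal of 7.83, 7.67, 7.60 and 7.14, rank 7453 of 21448. Among the 18 genes of the NOTCH list, 16 were above the silent-gene limit and 12 above the median (74.5% and 52.5% of all genes). The 3 in the top 25%, which held 26.6% of all genes, were MYC, HES1 and RBPJ. HES1, a direct target of NOTCH1 in T cells, read 9.66, 9.76, 9.83 and 9.40, and RBPJ, the DNA-binding partner of NOTCH, read 7.66, 8.89, 8.41 and 8.45. DTX1, another target, read 7.90, 7.35, 7.48 and 5.82, and HEY1 read 8.07, 7.89, 7.43 and 6.59. In both, replicate 4 was lowest. HEY2 at 3.85 and NRARP at 4.55 lay under the silent-gene limit.

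MYC, which drives ribosome production and cell growth, read 10.44, 9.72, 10.33 and 10.01, rank 1182. All 11 measured members of the MYC network were above the median of all probe sets (52.5% of all genes were). MAX, the obligate partner of MYC, was even across arrays at 10.09, 10.07, 9.99 and 9.95. MYCN had a mean of 8.18.

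Among genes hit by lesions in T-ALL, 19 of 19 were above the silent-gene limit (74.5% of all genes were). CDKN2A, the tumour suppressor that this line is known to have lost, read 5.02, 5.19, 5.11 and 6.27 and was the lowest of them. Its neighbour CDKN2B read 6.72, 7.19, 6.62 and 8.13. Replicate 4 was highest for both, and a level above the limit here cannot be read as a transcript without the scanner's background. The apoptosis inhibitor MCL1 had a mean of 10.48, above BCL2L1 at 8.25 and BCL2 at 7.31, though levels of different probe sets do not rank transcripts. The chromatin proteins PHF6, EZH2 and SUZ12 had means of 10.28, 9.48 and 9.46.

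Genes of other lineages mostly lay below the median of all probe sets, with exceptions. None of the 16 measured genes of mature effector T cells lay above the median of all probe sets. Above the silent-gene limit lay 9 of the 16 (74.5% of all genes), with FASLG highest at 6.34. The lowest were interferon gamma (IFNG) at 3.17, GZMK at 3.08 and interleukin-2 (IL2) at 2.93. Of 18 myeloid markers 4 were above the median and 13 above the silent-gene limit (52.5% and 74.5% of all genes were). The 13 are near the share over all genes. LYZ was at 3.81, S100A8 at 3.10 and MPO at 5.75. Of 12 stem and progenitor markers 2 were above the median and 6 above the silent-gene limit (52.5% and 74.5% of all genes were). KIT was at 3.74, FLT3 at 3.10 and CD34 at 6.13. In the remaining lists 1 of 11 liver, 2 of 11 muscle, 3 of 11 neural and 3 of 14 germ-cell markers were above the median. So were 3 of 14 epithelial, 2 of 14 fibroblast, 6 of 13 endothelial and 6 of 15 erythroid and megakaryocyte markers. The same held for 6 of 13 NK and cytotoxic and 6 of 17 B-cell markers, against 52.5% of all genes. Above the silent-gene limit lay 13 of 17 B-cell and 11 of 13 endothelial markers, against 74.5% of all genes. Each other remaining list had a smaller share above that limit than all genes. At the edge of the silent-gene limit, the neuronal transporter SLC17A7 at 4.80, the keratin KRT14 at 4.84 and CEBPA at 4.87 lay just over it and GDF9 at 4.71, CKM at 4.69 and TF at 4.65 just under it.

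The 12 other-lineage genes in the top 25% included several that a single-lineage label would not name. AIF1, best known from macrophages, read 12.09, 11.66, 11.89 and 12.08, rank 145. ERG, an ETS factor of stem cells and endothelium, read 10.70, 10.89, 10.65 and 10.53, and HHEX, a homeobox factor of progenitors, had a mean of 9.53. GZMA and NKG7, of cytotoxic granules, had means of 9.72 and 9.27, while KLRD1 at 2.88 and GNLY at 4.03, markers of the same cells, were near the olfactory receptors. The B-cell receptor chain CD79A had a mean of 9.47, CD72 of 8.66 and IGLL1 of 8.43, while MS4A1 (CD20) was at 3.56. FLT1, a receptor of vascular growth factor, read 9.13, 10.15, 10.14 and 8.75, EGFL7 and PECAM1 had means of 8.99 and 8.66, and the endothelial receptor KDR was at 3.28. ACTA1, skeletal muscle actin, had a mean of 9.57 and shares sequence with the other actins. No other-lineage list had most of its markers above the median. On replicate 4, 12 of the 13 other-lineage lists had a median difference above 0 from the other 3 arrays, up to 0.42 for the NK and cytotoxic list. Over all genes of the fifth decile of level, the same difference was 0.27.

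**Figure D2:**
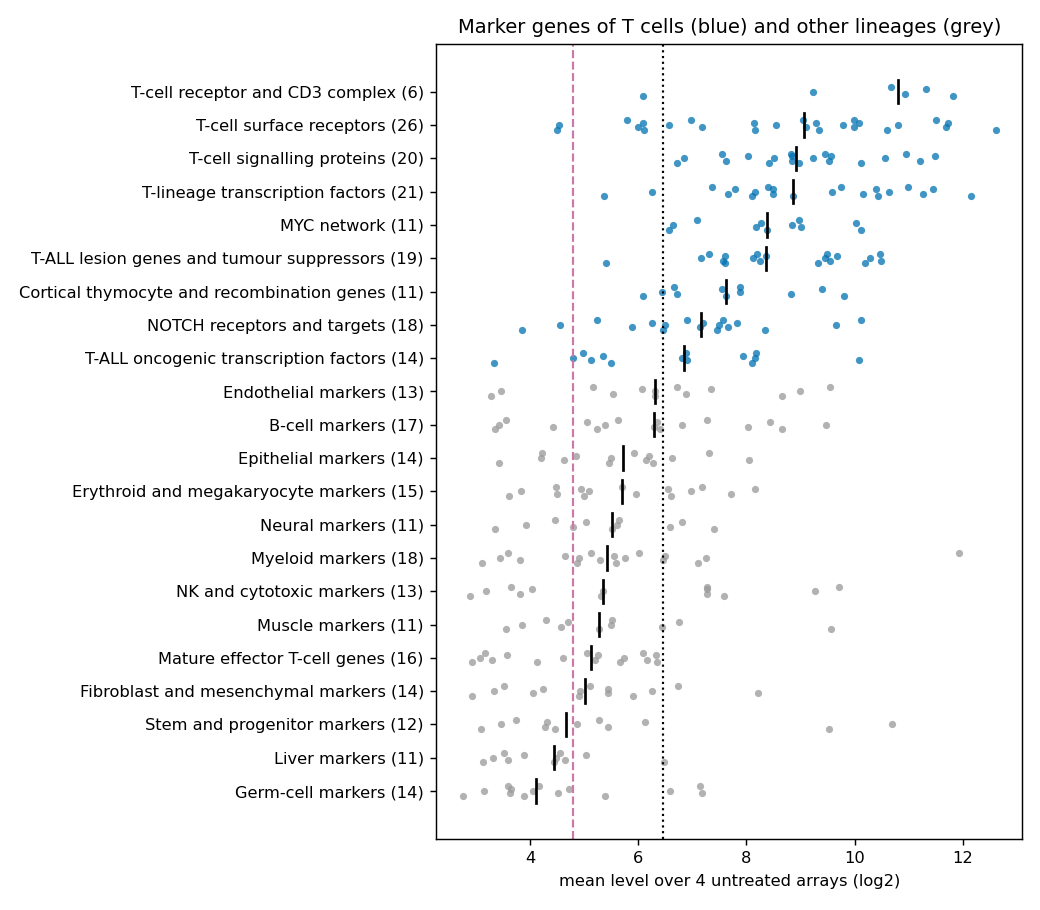
Mean log2 level over the 4 untreated arrays of each measured marker (1 point a gene), by list, with the list median as a black bar, the silent-gene limit (4.79, dashed) and the median of all probe sets (dotted); the number measured is in brackets. The lists of T-cell and T-ALL genes (blue) all have higher medians than the lists of other lineages (grey), and AIF1 at 11.93 is the rightmost grey point.

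HLA class I and antigen processing genes were all above the median of all probe sets, 14 of 14 (52.5% of all genes were). B2M, the invariant light chain, stood at 12.38 ± 0.17 (SD, n = 4), HLA-C at 10.84, PSMB9 at 10.44 and HLA-E at 10.40. HLA class II genes gave 0 of 10: HLA-DRA was at 3.01, the class II activator CIITA at 5.19 and the invariant chain CD74 at 5.93. HLA genes vary in sequence between people and share it among themselves, so probe sets for them are uncertain.

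In the collagen gel, 4 of 10 receptors for collagen were above the median of all probe sets, near the 52.5% of all genes. LAIR1, an inhibitory collagen receptor of leukocytes, read 9.92, 9.90, 9.68 and 10.31. ITGB1, the beta chain of the collagen-binding integrins, read 9.36, 9.70, 9.69 and 8.80, but its partner ITGA2 read 4.37, 5.39, 3.95 and 4.06, under the silent-gene limit on the mean. ITGA11 at 4.30 was under it too. In the list of leukocyte integrins and other adhesion molecules, 16 of 18 were above the median. CD47, a ligand of the phagocyte receptor SIRPA, had a mean of 11.61 and ICAM2, a ligand of LFA-1, of 10.27. Among its integrins, ITGA4, which pairs with ITGB1 to bind VCAM1 and fibronectin, had a mean of 9.86 and ITGA6, a laminin receptor chain, of 7.23, and ITGAV at 6.42 and ITGB3 at 4.58 were the 2 members not above the median. ITGA4 read 10.25, 10.52, 9.82 and 8.87 and ITGAL, the alpha chain of LFA-1, read 7.86, 8.30, 8.68 and 9.70, so replicate 4 was lowest for one and highest for the other. Among matrix proteases and inhibitors ADAM10 and TIMP1 both had a mean of 10.50, and the collagenases MMP1, MMP8 and MMP13 were at 4.82, 3.44 and 3.40.

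Genes of the complex that OICR-9429 acts on gave clear signals in untreated cells. WDR5 read 10.03, 9.12, 9.75 and 9.27, and its partners RBBP5, ASH2L and DPY30 had means of 9.15, 9.15 and 10.03. KMT2A, the MLL methyltransferase, read 9.05, 9.35, 8.93 and 7.57. Of 16 genes of the core and the H3K4 methyltransferases, 15 were above the median (52.5% of all genes were). The exception was KMT2B at 6.05.

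Genes of the dividing cell were high throughout. All 30 mitotic genes lay in the top 25%, with PLK1 at 11.46, NUSAP1 at 11.27 and TOP2A at 11.00, and 27 of 32 replication genes did, with TYMS, which makes thymidylate, at 11.74, PCNA at 11.60 and RRM1 at 11.47. All 28 proteasome subunits, 28 translation factors, 29 splicing factors and 24 cytoskeleton genes were in the top 25% as well. Of all genes, 26.6% were. The 47 cytosolic ribosomal proteins had a median of 12.13 and the 74 mitochondrial ones 8.78.

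How much the 4 arrays differed from each other depended on the gene. The median SD over all probe sets was 0.302 (quartiles 0.195 and 0.455), and 0.193 without replicate 4. Of the 17665 genes, 26.9% spanned 2-fold or more over the 4 arrays, and 4.11% did without replicate 4 (26.8% and 4.14% of all probe sets). The span also followed level: by decile of mean level over all probe sets, from the dimmest to the brightest, 1.82% of probe sets spanned 2-fold in the lowest decile, 43.7% in the eighth and 28.8% in the highest.

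**Figure D3:**
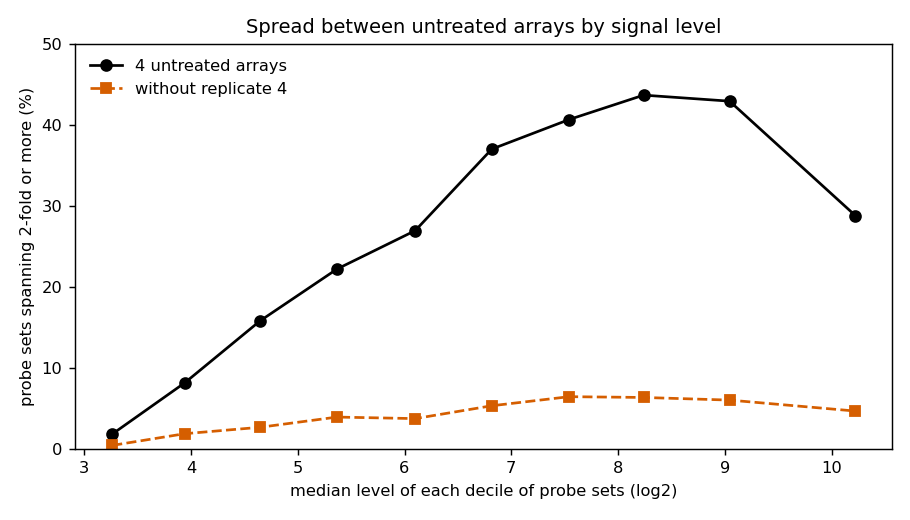
Share of probe sets spanning 2-fold or more over the untreated arrays (%) against the median log2 level of each decile of probe sets, with all 4 arrays (circles) and without replicate 4 (squares). The share climbs from 1.82% in the dimmest decile to 43.7% in the eighth and is 28.8% in the brightest, and without replicate 4 it stays between 0.42% and 6.44%.

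The most even strong genes barely differed between arrays. Among genes in the top 25%, the 20 smallest SDs ran from CHP1, a calcineurin-like calcium-binding protein, at 10.68, 10.66, 10.66 and 10.64 (SD 0.016, n = 4), to BRD3, a bromodomain protein, at SD 0.041. They included RPL12, IFITM1, HNRNPC, the small GTPase CDC42 and PPIA, the cyclophilin often used as a reference, which read 12.67, 12.68, 12.68 and 12.62. SDHA, a subunit of complex II of respiration, read 9.20, 9.18, 9.21 and 9.12. RPL38 and RPS23, in the 30 strongest genes, were also in this set.

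Not every common reference gene was even. Of 26 measured, 7 spanned 2-fold or more, near the share over all genes, and 2 did without replicate 4. ACTB, beta-actin, read 10.69, 9.87, 11.03 and 11.28, and GPI, a glycolytic enzyme, read 10.32, 10.65, 11.67 and 12.55. PGK1, another, read 10.55, 11.34, 11.44 and 12.17. POLR2A, VPS29, REEP5 and IPO8 were each lowest on replicate 4, at 9.48, 9.58, 7.29 and 7.69.

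Immediate early genes, which respond to serum, touch or stress within minutes, were among the most uneven. Of 32 measured, 24 spanned 2-fold or more, and 15 did without replicate 4, against 26.9% and 4.11% of all genes. The list's median level of 7.66 lay in the seventh decile of all genes by level, where 41.4% and 5.95% did. EGR1, a zinc finger factor of this class, read 5.93, 9.05, 9.94 and 9.92, and JUN, a subunit of the AP-1 factor, read 6.71, 8.76, 10.08 and 9.87. For both, replicate 1 was over 4-fold under each of the other 3 arrays. NR4A1, an orphan nuclear receptor induced by receptor signalling in T cells, read 6.53, 7.92, 10.30 and 7.53, and CD69, an early activation marker outside the list, read 7.75, 9.82, 9.92 and 9.85. Replicate 1 lay under the mean of the other 3 arrays for 30 of the 32 listed genes, and for 8901 of all 17665 genes. FOS, named after its values were seen, spanned less than 2-fold at 6.37, 6.31, 6.66 and 6.79.

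Hypoxia-induced genes had the largest share of uneven members of the lists. Of 24 measured, 20 spanned 2-fold or more, and 16 did without replicate 4. BNIP3, a mitochondrial protein induced by HIF1 in low oxygen, read 8.50, 10.97, 10.94 and 11.75, and P4HA2, a collagen prolyl hydroxylase of the same response, read 5.96, 8.21, 7.72 and 9.26. BHLHE40, a repressor induced in hypoxia, read 6.75, 9.14, 8.45 and 10.00, and JAM3, an adhesion molecule outside the list, read 8.69, 10.71, 10.77 and 11.61. All 24 members lay under the mean of the other 3 arrays on replicate 1, with a median difference of -1.19 log2, and 23 lay above it on replicate 4, with a median of 0.94. Over all 17665 genes, 8901 lay under that mean on replicate 1. On replicate 4, 9641 lay above it, with a median of 0.073. Among glycolytic enzymes 16 of 18 were lower on replicate 1 and 17 of 18 higher on replicate 4. On replicate 2, however, 18 of 24 hypoxia genes were higher and 16 of 18 glycolytic enzymes were lower. Of all 17665 genes, 8831 were higher and 8763 lower on replicate 2. ALDOC read 7.58, 9.34, 9.82 and 10.93.

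Other lists varied in other directions. Ribosome biogenesis genes were highest on replicate 1, where 24 of 27 lay above the mean of the other 3 arrays (8707 of all 17665 genes did). Of the 27, 18 spanned 2-fold or more and 6 did without replicate 4, against 26.9% and 4.11% of all genes. SRM, spermidine synthase, a MYC target, read 10.97, 8.71, 9.88 and 9.41 and UTP20 read 8.48, 7.12, 7.95 and 5.34. Sterol synthesis genes were lower on replicate 1 in 14 of 17, with 10 of 17 spanning 2-fold (6 of 17 without replicate 4), and HMGCS1, an early enzyme of the pathway, read 9.46, 10.95, 10.95 and 10.07. Of 24 amino acid response genes under ATF4, 6 (25%) spanned 2-fold or more, near the 26.9% of all genes. Without replicate 4, 3 (12.5%) did, against 4.11% of all genes. The list's median level of 7.91 lay in the seventh decile of all genes by level, where 41.4% and 5.95% did. ASNS, asparagine synthetase, read 6.82, 9.91, 7.36 and 7.53, and SLC7A11, the cystine transporter, read 7.47, 9.53, 7.89 and 5.69. Both were highest on replicate 2, as were 10 of the 24 (4137 of all 17665 genes). Another 13 of the 24 were highest on replicate 4 (7295 of all 17665 genes). Of 17 heat shock genes, 11 were lower on replicate 4 (7982 of all 17665 genes were), with a median difference of -0.22. The brightest decile of all genes, where the list's median level lay, had the same median difference of -0.22. HSPA1A and DNAJB1, the members with the widest spans, were highest there, with HSPA1A at 8.0, 10.46, 8.93 and 10.78 and DNAJB1 at 9.74, 11.39, 10.50 and 11.78.

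The promoters of 4 variable genes are shown because each gene was among the 20 largest SDs without replicate 4 and its promoter holds a motif known from its list. For each the 250 bases before the RefSeq start on GRCh38.p14 are printed 5′ to 3′ in the direction of the gene, in lower case with the motif in capitals. EGR1 lies at chr5:138465229-138465478 on the plus strand and holds 2 CArG boxes, bound by SRF, starting 105 and 83 bases before the start. BNIP3 lies at chr10:131981924-131982173 on the minus strand and holds CACGTG, in which the HIF core ACGTG can be read on both strands. ASNS lies at chr7:97872409-97872658 on the minus strand and holds TGATGAAA, a form of the ATF4 element TGATGNAA, starting 68 bases before the start. H2BC14, a replication-dependent histone, lies at chr6:27814772-27815021 on the plus strand and holds the octamer ATTTGCAT, starting 48 bases before the start.
EGR1: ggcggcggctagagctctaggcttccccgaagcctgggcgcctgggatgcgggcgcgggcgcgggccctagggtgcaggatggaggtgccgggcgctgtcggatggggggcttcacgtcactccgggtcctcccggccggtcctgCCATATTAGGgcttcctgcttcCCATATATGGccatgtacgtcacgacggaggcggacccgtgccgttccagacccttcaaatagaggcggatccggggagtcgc
BNIP3: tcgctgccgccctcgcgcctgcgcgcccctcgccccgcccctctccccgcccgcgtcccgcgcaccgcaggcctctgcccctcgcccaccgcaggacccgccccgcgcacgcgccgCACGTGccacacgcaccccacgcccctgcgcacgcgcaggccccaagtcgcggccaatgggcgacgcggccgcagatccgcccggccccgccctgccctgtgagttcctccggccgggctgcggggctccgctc
ASNS: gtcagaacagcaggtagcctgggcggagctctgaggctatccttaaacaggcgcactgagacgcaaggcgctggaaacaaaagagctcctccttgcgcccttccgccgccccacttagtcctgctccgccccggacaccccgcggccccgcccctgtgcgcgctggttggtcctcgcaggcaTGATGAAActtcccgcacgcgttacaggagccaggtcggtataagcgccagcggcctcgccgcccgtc
H2BC14: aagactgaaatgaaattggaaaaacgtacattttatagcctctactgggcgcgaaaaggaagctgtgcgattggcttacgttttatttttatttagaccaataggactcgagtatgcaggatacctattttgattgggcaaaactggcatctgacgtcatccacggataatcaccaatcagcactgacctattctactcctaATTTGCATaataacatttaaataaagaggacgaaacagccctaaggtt

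These motifs were searched on both strands of the 250 bases before the start in 14236 genes with a RefSeq promoter. A CArG box was found in 2 of 22 immediate early promoters and in 1.18% of all promoters, and ACGTG in 11 of 19 hypoxia promoters and in 20.7% of all. TGATGNAA was found in 3 of 20 ATF4-list promoters and in 2.20% of all. Histone promoters held TATAAA in 39 of 57 and ATTTGCAT in 22 of 57, against 8.99% and 1.59% of all. A match describes these letters and does not show that a factor binds there.

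Replication-dependent histone genes are short, have no introns and give RNAs that mostly lack a poly(A) tail. H2BC14 had the largest SD of the histones without replicate 4, at 12.32, 9.30, 11.59 and 12.19, with replicate 2 lowest. Of 61 histone genes, 22 spanned 2-fold or more and 2 did without replicate 4 (26.9% and 4.11% of all genes did). On replicate 4, 60 of 61 lay above the mean of the other 3 arrays, with a median difference of 0.62 (9641 of all 17665 genes, with a median of 0.073). H3C1 read 9.68, 9.16, 9.84 and 10.94. In the other direction, zinc finger ZNF genes, mostly repressors, had a median difference of -0.39 on replicate 4. Their median level of 7.37 lay in the seventh decile of all genes by level, where that difference was -0.15. Of the 482 ZNF genes, 191 (39.6%) spanned 2-fold or more, near the 41.4% of that decile. Without replicate 4, 12 of 482 (2.49%) did, against 5.95% of the decile. ZNF518A read 7.41, 8.48, 7.39 and 5.32.

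The 20 genes with the largest SD above the silent-gene limit were led by RNF130, a ubiquitin ligase, which read 5.35, 5.41, 8.74 and 3.62. Replicate 4 was the lowest array for 17 of the 20 and replicate 1 for the other 3, EGR1, NR4A1 and JUN. SMC5, of the SMC5/6 DNA repair complex, read 8.44, 8.49, 8.40 and 4.83 and EEA1, an early endosome tether, read 8.70, 8.55, 7.94 and 4.88. CEP290, a large centrosome protein, read 7.92, 7.86, 7.44 and 4.65, and NKTR, a cyclophilin-related protein with an RS domain, read 10.68, 11.26, 10.50 and 7.75. SMC5, EEA1, CEP290 and NKTR each spanned less than 2-fold over replicates 1 to 3. Without replicate 4 the 20 largest SDs were led by EGR1, RNF130, NR4A1 and JUN, and 5 of the 20 genes were shared with the first set. Replicate 1 was lowest for 14 of these 20. They included RGS2, a regulator of G-protein signalling, at 5.27, 8.21, 6.88 and 7.14, and BEX1, at 4.56, 4.35, 6.62 and 4.46.

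**Figure D4:**
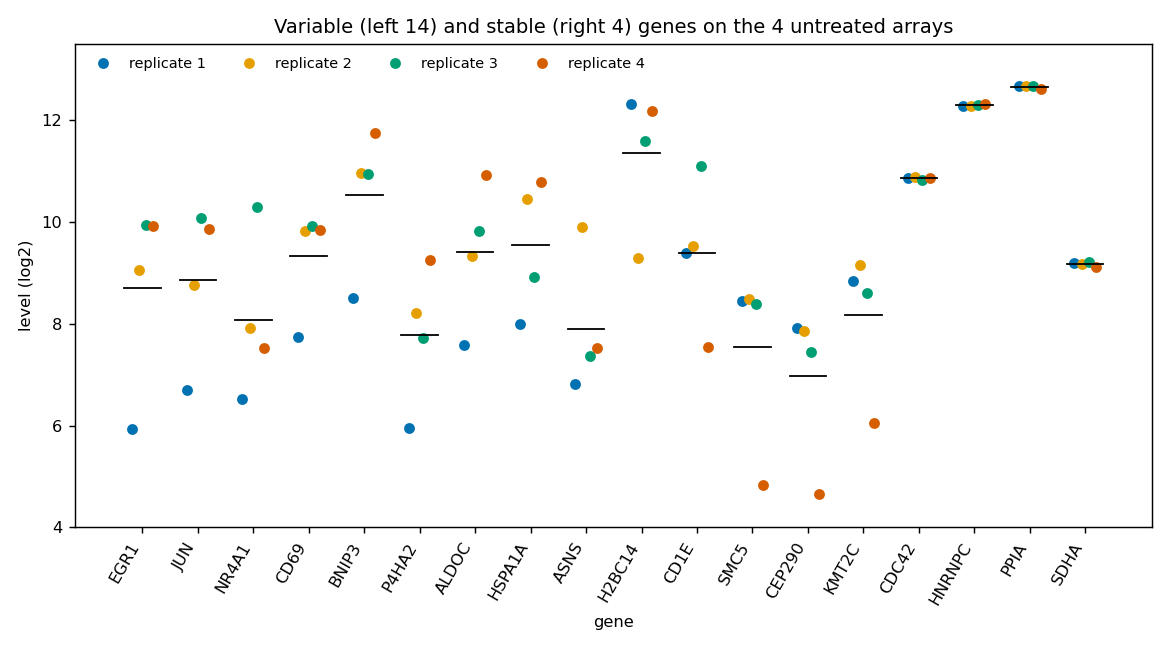
Log2 level of 14 variable genes (left) and 4 even genes (right) on each untreated array, 1 coloured point per replicate, with the mean as a black bar and the number of arrays 4 for every gene. EGR1 has replicate 1 at 5.93 far under the other arrays, SMC5 has replicate 4 at 4.83 far under them, CD1E runs from 7.54 to 11.10, and the points of PPIA and SDHA nearly coincide.

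Genomic span, the distance from the start to the end of a gene in the RefSeq annotation, differed between these sets. The 20 largest-SD genes had a median genomic span of 53.5 kb, against 25.9 kb over all genes and 11.3 kb in the set chosen without replicate 4. The 20 smallest-SD genes had a median of 34.9 kb, also above that of all genes. Among genes in the top 25% of level, ordered into deciles by genomic span from a median of 3.08 kb to 183 kb, the median difference of replicate 4 from the other 3 arrays went from 0.36 in the shortest decile to -0.64 in the ninth and -0.53 in the longest. On replicate 2 it went the other way, from -0.39 to 0.34. Replicates 1 and 3 stayed between 0.09 and 0.22 and between -0.03 and 0.15. Genomic span was the only length at hand, and RNA quality values were not used here, so their part in the pattern was not tested.

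**Figure D5:**
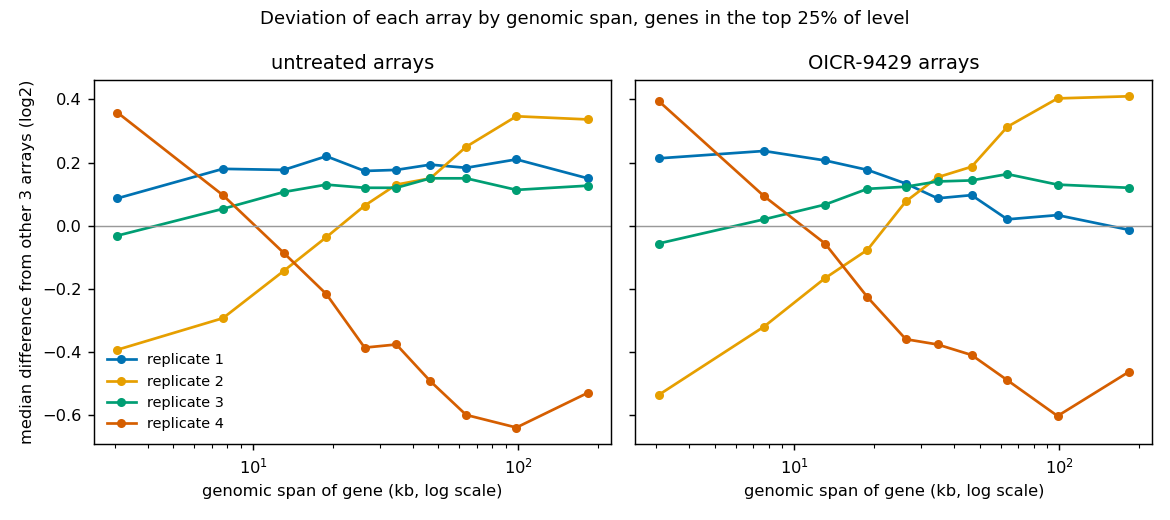
Median log2 difference of each array from the other 3 arrays of its group against the median genomic span (kb, log axis) of each decile of genes in the top 25% of level, 1 line per replicate, untreated arrays left and OICR-9429 arrays right. The replicate 4 line falls from 0.36 to -0.53 in untreated cells and from 0.40 to -0.46 in OICR-9429 cells, while the replicate 2 lines climb.

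The arrays of the same number in the other group shared these patterns. The OICR-9429 array of replicate 4 went from 0.40 in the shortest decile to -0.46 in the longest, and that of replicate 2 from -0.54 to 0.41. For 81.4% of the 5749 probe sets that spanned 2-fold or more in untreated cells, the lowest OICR-9429 array carried the same replicate number as the lowest untreated array, against 47.6% of the 15699 that did not. For the 20 genes with the largest SD it was 20 of 20, and for the 20 with the smallest SD 7 of 20. The labels do not say what a shared number stands for.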

How the data were processed

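RNA was extracted with the NucleoSpin RNA kit and labelled with the GeneChip WT PLUS kit for 1 Affymetrix array per sample, per the labels' protocols. The deposited values are log2 levels per probe set, for which the submitters' processing notes name RMA and Transcriptome Analysis Console. No version or genome build is stated (not given in the sources used here). RMA usually brings arrays to a like distribution, so a shift of all genes would not show. Values have 2 decimals, and no pair of arrays was identical.

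Means, SDs, ranges and ranks were computed in Python 3.11.15 with pandas 2.3.3 and numpy 2.4.6 and tested on simulated data. A range of at least 1 on the log2 scale is a 2-fold span. A single group was described, so no difference between groups was tested and no p-value is given. Dixon's ratio at its 95% limit was used only to pick out sets of 4 values with 1 array apart. Genes named are the 30 highest means, all lineage markers and common reference genes, the 20 largest SDs above the silent-gene limit with and without replicate 4, the 20 smallest in the top 25%, of each other list the 3 highest means and 3 largest ranges, list members nearest the limit and the WDR5 complex. FOS, KMT2B, HLA-DRA, MMP1, MMP8, MMP13, ITGB3, SAMHD1 and CDA were named after their values were seen. The 46 explicit lists held 969 symbols, and 860 of their entries were measured. All 17709 symbols matched RefSeq (GRCh38.p14). The members and lists were chosen with earlier results of these data known. No array depth exists, so the number of arrays limits precision. Alternatives changed the limit, normalization, replicates, probe sets and spread measure.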

Additional observations from a re-analysis of the deposited data

Results flagged for a closer look

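For 255 sets of 4 untreated values (52 lists by their mean level and 203 genes named in the text), the gap between the highest or lowest array and its nearest neighbour was divided by the range. In 19 sets, 15 genes and 4 lists, this ratio passed Dixon's 95% limit for 4 values. The limit is passed by chance in about 1 in 20 sets that were not chosen by their spread. Many of these genes were chosen by their spread and all sets share the same 4 arrays, so the number of sets past the limit is a description. A high ratio says that 1 array lies apart from 3 close ones, whatever the distance. The array apart was replicate 4 in 15 of the 19 sets (10 lowest, 5 highest), replicate 1 in 3 and replicate 3 in 1.

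Replicate 4 was the array apart, and lowest, for SMC5 (ratio 0.975), SUZ12 (0.904), EZH2 (0.887), CD3G (0.87), TOX (0.857), ITGB3 (0.857), CEP290 (0.853), RRM1 (0.84) and PPIA (0.833). SUZ12 and EZH2 are both subunits of Polycomb repressive complex 2, and SUZ12 read 10.04, 10.07, 9.86 and 7.88 while EZH2 read 9.80, 9.70, 9.84 and 8.60. PPIA read 12.67, 12.68, 12.68 and 12.62, a narrow range despite its ratio. ITGB3 read 4.65, 4.72, 4.72 and 4.23, all under the silent-gene limit of 4.79. The mean over the 19 T-ALL lesion genes, which hold SUZ12 and EZH2, was also lowest there, at 8.41 against 8.72 to 8.77 (ratio 0.864).

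Replicate 4 was the array apart, and highest, for CDKN2A, at 6.27 against 5.02 to 5.19 (ratio 0.864). It was also highest for the endothelial receptor KDR, at 3.53 against 3.17 to 3.23 (0.833), all under the silent-gene limit of 4.79. The same array was apart and highest for the mean levels of the NK and cytotoxic markers, 6.17 against 5.77 to 5.82 (0.892), the olfactory receptors, 3.67 against 3.54 to 3.56 (0.855), and the B-cell markers, 6.22 against 6.05 to 6.08 (0.847).

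Replicate 1 was the array apart, and lowest, for CD69 (ratio 0.954), the chemokine receptor CCR4 (0.857), which read 9.96, 10.87, 10.82 and 10.74, and TAL1 (0.838), which read 7.89, 8.25, 8.20 and 8.26. Replicate 3 was apart and highest for BEX1 (0.907).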

How the results depend on the processing

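No paired analysis was possible because a single group was described and no difference was tested. Of 21448 probe sets, 15686 lay above the silent-gene limit, and 7697 did with the limit of other tissue-restricted families in place of olfactory receptors. Spans of 2-fold or more numbered 5749, and 12609 with 1.5-fold as the bar. Leaving out each replicate in turn gave 887 to 5380 spans (887 without replicate 4), 15378 to 15620 probe sets above the limit, a median SD of 0.193 to 0.329, and 81 T-lineage genes above the limit each time. The 81 became 79, 73 and 65 of 83 with the 99th percentile, the median of all probe sets and the other families as the limit. Another quantile normalization or median centring left 5637 and 5781 spans. Of 35 variable genes, the SD moved by over 1.5 times in 14 without replicate 4 and in 3 to 8 without another. Without scanner background, low levels cannot be told apart from no signal.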

Other observations

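Genes of nucleoside metabolism, the targets and activators of antileukaemic nucleoside drugs, were mostly high, with 18 of 23 above the median of all probe sets (52.5% of all genes were). RRM1 and RRM2, the subunits of ribonucleotide reductase, had means of 11.47 and 10.76, and ADA, adenosine deaminase, of 10.76. SLC29A1, a nucleoside carrier of the membrane, read 8.93, 7.42, 8.86 and 7.60, and APRT, which salvages adenine, read 8.69, 6.96, 7.85 and 7.86. SAMHD1, which breaks down deoxynucleotides, was at 3.29 ± 0.35 (SD, n = 4), and CDA, cytidine deaminase, at 3.62 ± 0.17 (SD, n = 4). Both lay under the silent-gene limit of 4.79 and were picked after their values were seen.

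Interferon-stimulated genes gave 16 of 23 above the median and 4 in the top 25% (52.5% and 26.6% of all genes). IFI6 and XAF1 had means of 9.25 and 8.70, and the transcription factor IRF1 of 8.64. The p53 targets gave 15 of 19 above the median, led by CCNG1 at 10.29, MDM2, the ubiquitin ligase of p53, at 8.75 and BAX, a pore-forming apoptosis protein, at 8.73.

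Promoter composition differed with level. The RefSeq windows around the start had a median GC content of 48.3% in the dimmest decile of genes, 66.3% in the sixth and 63.7% in the brightest. The letters TATAAA stood in the last 50 bases before the start in 8.01% of promoters of the dimmest decile, 0.876% of the eighth and 3.64% of the brightest.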
